A study of Homo sapiens with 2 samples.

Results

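The clustered replication histone genes were measured in HSC-3 cells on Myogel and on plastic. They are the genes of the H1, H2A, H2B, H3 and H4 classes whose names place them in the histone clusters of the genome. A probe set was taken when its single annotated gene symbol began with an older cluster name (HIST1, HIST2 or HIST3) or fitted the current names of the clustered genes. This gave 51 probe sets for 45 genes, of 54613 probe sets and 19775 genes in all. The pattern as written took 53 probe sets, and H1-10 and H1-10-AS1 were set aside because they fitted it by their letters only. H1-10 is a linker histone whose expression is not tied to S phase, and H1-10-AS1 is its antisense transcript. A further 20 probe sets matched several genes that included a clustered histone gene and were not named. The 45 genes comprised 6 of class H1, 9 of H2A, 14 of H2B, 7 of H3 and 9 of H4. Of these, 2 are pseudogenes (H2AC5P and H4C10P), and H2BC12L is a relative of H2BC12 that lies outside the clusters.

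HSC-3 is a human cell line from an aggressive squamous cell carcinoma of the tongue. The cells carried red fluorescent protein from lentiviral particles with a non-coding control sequence and had been selected with puromycin. In the Myogel group, 90000 cells were grown on wells coated with Myogel, a matrix extracted from human uterine leiomyoma, and in the plastic group the same number was grown on uncoated wells. Both groups had the same DMEM/F-12 medium with heat inactivated serum, ascorbic acid and hydrocortisone, and were harvested the next day. RNA of 3 wells was pooled in equal parts for each surface and hybridised to 1 array, so neither surface had a replicate array. A protocol label describes the wells as uncoated for both samples, whereas the title, source and series design give a Myogel coating for one of them.

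In chromatin, DNA is wound around a core of the histones H2A, H2B, H3 and H4, and H1 binds the linker DNA between these cores. Replication histone genes are transcribed mainly in S phase, when new DNA has to be packed. Their mRNAs usually end in a stem-loop that is bound by SLBP, in place of a poly(A) tail. Some of the clustered genes also give transcripts with a tail. The labelling kit of these arrays primes on poly(A), so the intensities read mainly the tailed transcripts, and the share of each kind was not tested. Genes of one class are close in sequence, and a probe set may read RNA of several of them. Of the 51 probe sets, 9 had the suffix _x_at and 4 the suffix _s_at, both of which mark probes that may detect several transcripts. The intensities of different probe sets therefore do not rank the amounts of RNA, and each comparison below is between surfaces for 1 probe set.

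The values are linear intensities, and the fold change (FC) is the value on Myogel over the value on plastic. Where a gene had several probe sets, the one of highest mean log2 intensity stood for it. A gene was counted as higher or lower at FC 1.5 or more in that direction, with no test. On Myogel, 5 of the 45 histone genes were higher (11.1%) and 7 were lower (15.6%), and 33 lay within the threshold. In RNA of whole cultures, fewer cells in S phase and less histone RNA per cell cannot be told apart. Over all 19775 genes, 9.71% were higher and 17.5% were lower. The median log2 FC of the histone genes was −0.07, and that of all genes was also −0.07. The histone median became 0.027 after quantile normalization of the arrays and 0.035 after loess, and under both the counts became 8 higher and 3 lower. After quantile normalization 13.2% of all genes were higher and 13.0% were lower. Setting the median log2 ratio of all probe sets, which was −0.11, to 0 gave a histone median of 0.033, with 5 higher and 6 lower. Under that setting the median of all genes was 0.037, with 11.3% higher and 15.2% lower.

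The calls lay among dim probe sets. By probe set, 6 of 51 were higher and 8 were lower, against 13.8% and 24.2% of the whole array. Of the 51 probe sets, 28 had a mean intensity below 100 units, and they held 13 of the 14 probe sets past FC 1.5. Of all probe sets below 100 units, 58.5% were past it in either direction. Of the 23 probe sets at or above 100 units, 1 was past it, for H2AC14, against 6.75% of all probe sets of that intensity. Genes at least as bright as the median probe set included 29 histone genes, of which 1 was higher (3.45%) and 1 was lower (3.45%). Among all genes of that brightness, 2.26% were higher and 4.83% were lower. None of the 45 genes combined FC 1.5 with a difference of 100 units, against 1.07% of all genes. The 10 probe sets with a mean of 500 units or more had log2 FC between −0.37 and 0.34. Of these 10, 7 had the suffix _x_at or _s_at and may read several histone genes. They were the probe sets of H2AC6, H2BC5, H2BC6, H2BC9, H2BC12L and H3C8. For each probe set, the central 95% of the log2 FC of the 1000 probe sets of most similar intensity gave a range. Only H2BC15 lay outside its own. By definition such a range leaves some probe sets outside, and 1 of 51 is no excess. The ranges given for other genes below are of the same kind.

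**Figure D1:**
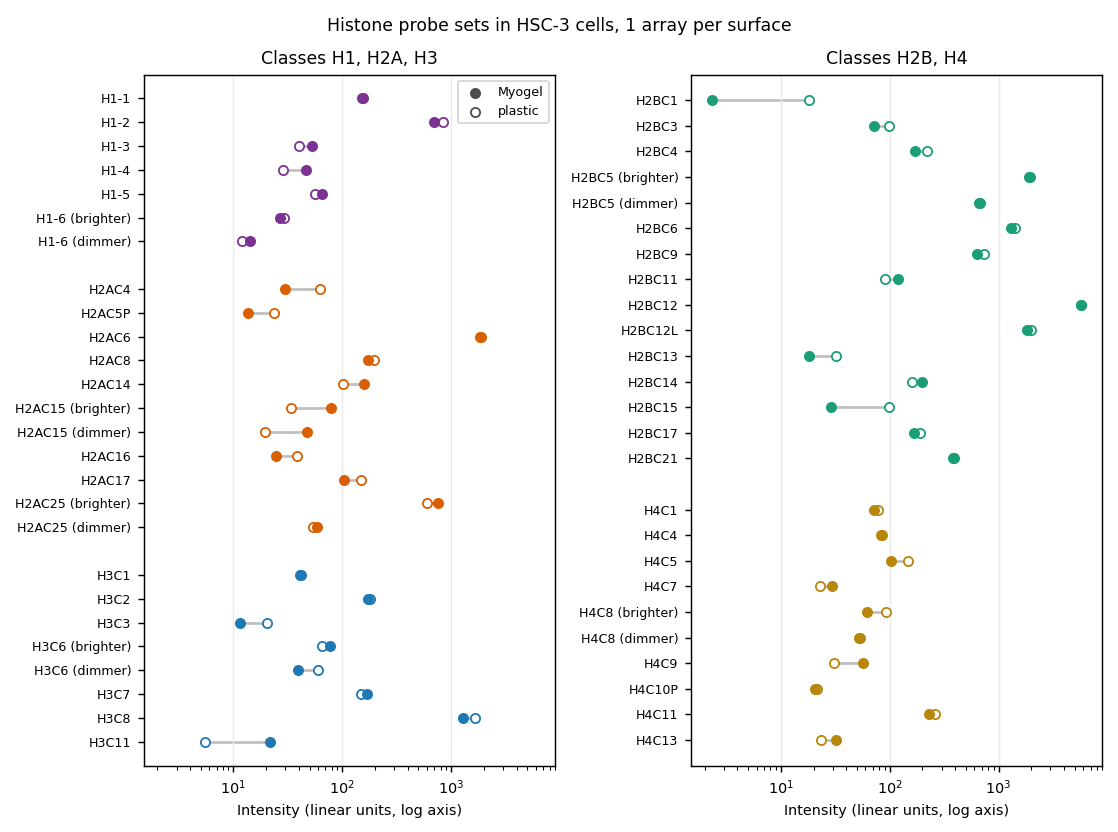
Intensity of each of the 51 histone probe sets on Myogel (filled circles) and on plastic (open circles), in linear units on a log axis, in rows by gene and class, with 1 array per surface and no error. Circles of the bright probe sets such as H2BC12, H2AC6 and H2BC5 nearly coincide, while the widest gaps lie at H2BC1, H3C11 and H2BC15.

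**Figure D2:**
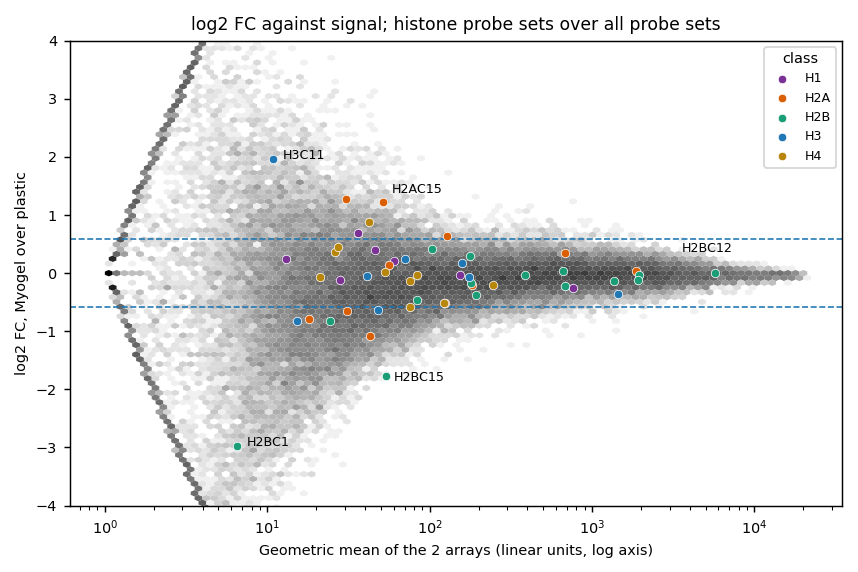
Log2 FC of Myogel over plastic against the geometric mean of the 2 intensities (linear units, log axis), with histone probe sets coloured by class, all probe sets in grey (darker where denser) and dashed lines at FC 1.5. Histone points fan out towards low signal as the other probe sets do, and H2BC15 lies below its neighbours.

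The promoters of the classes differ in known control elements, so they were searched on both strands for 3 short motifs in windows of 250 bases before to 50 bases after the start of the gene. The sequences are those of RefSeq in the build GRCh38.p14, and 40 of the 45 genes had one, with H2AC5P, H2BC12L, H3C11, H4C1 and H4C10P as the others. The motifs were the octamer ATTTGCAT, which the factor OCT-1 binds in H2B promoters, the CCAAT box and the TATA box as TATAAA. The octamer was present in 10 of 13 H2B windows (76.9%), 6 of 8 H2A windows (75.0%) and none of the 6 H1, 6 H3 and 7 H4 windows. It occurred in 2.19% of the 27305 promoters in the table. Of the 6 H2A windows with an octamer, 4 were shared with an H2B gene on the other strand. CCAAT was found in all 13 H2B, 8 H2A, 6 H1 and 6 H3 windows but in 2 of 7 H4 windows (28.6%), against 39.7% of all promoters. TATAAA was found in 27 of the 40 windows (67.5%), against 14% of all promoters. The H2B windows without an octamer were those of H2BC5, H2BC13 and H2BC15.

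Windows of 4 genes show the range of these promoters, in lower case with matches to the motifs in capitals. H2BC12 (chr6:27146809-27147108, minus strand) belonged to the brightest histone probe set with 1 gene and carried the octamer and CCAAT and TATAAA matches. H2BC4 (chr6:26123877-26124176, minus strand) shares its window with H2AC6, and H2BC15 (chr6:27838319-27838618, plus strand) shares its window with H2AC15 and held no octamer and no TATAAA. H3C8 (chr6:26271364-26271663, minus strand) was the brightest of the H3 genes and held 4 CCAAT matches. A match describes the letters only and does not show that a factor was bound.
H2BC12: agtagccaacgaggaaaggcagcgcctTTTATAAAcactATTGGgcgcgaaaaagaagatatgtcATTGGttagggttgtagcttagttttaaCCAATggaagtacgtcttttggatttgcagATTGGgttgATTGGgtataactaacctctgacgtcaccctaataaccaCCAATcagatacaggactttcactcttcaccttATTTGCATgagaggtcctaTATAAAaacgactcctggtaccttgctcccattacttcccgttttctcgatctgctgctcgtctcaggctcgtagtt
H2BC4: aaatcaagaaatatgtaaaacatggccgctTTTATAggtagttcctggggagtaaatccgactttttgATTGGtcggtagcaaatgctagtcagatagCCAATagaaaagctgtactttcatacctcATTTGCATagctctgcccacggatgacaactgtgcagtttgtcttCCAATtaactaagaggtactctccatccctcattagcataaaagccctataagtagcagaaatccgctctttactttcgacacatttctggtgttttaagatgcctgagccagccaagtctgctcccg
H2BC15: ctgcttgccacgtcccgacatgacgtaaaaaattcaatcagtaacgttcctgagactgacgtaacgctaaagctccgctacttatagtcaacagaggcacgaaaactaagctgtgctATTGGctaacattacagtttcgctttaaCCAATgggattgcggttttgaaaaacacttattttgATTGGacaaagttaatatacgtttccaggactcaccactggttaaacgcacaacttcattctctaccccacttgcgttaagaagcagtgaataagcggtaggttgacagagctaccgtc
H3C8: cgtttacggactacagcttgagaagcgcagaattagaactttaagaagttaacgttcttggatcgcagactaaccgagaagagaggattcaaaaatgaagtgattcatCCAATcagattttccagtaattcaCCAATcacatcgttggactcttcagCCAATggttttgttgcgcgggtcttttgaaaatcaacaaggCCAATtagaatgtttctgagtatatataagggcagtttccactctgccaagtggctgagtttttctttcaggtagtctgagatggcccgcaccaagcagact

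The H1 genes code for the linker histones, of which H1-1 to H1-5 are made in somatic cells and H1-6 is a testis form. Of the 6 genes, 1 was higher (16.7%, against 9.71% of all genes) and none was lower (17.5% of all genes). The median log2 FC of 0.09 became 0.29 after quantile normalization and 0.33 after loess. H1-2 had an intensity of 701 on Myogel and 838 on plastic (log2 FC −0.26), within the range of −0.58 to 0.54 of its neighbours in signal. H1-1 had 153 on Myogel and 155 on plastic. These were the brightest of the class, and neither reached FC 1.5. The gene counted as higher was H1-4, with 46.0 on Myogel and 28.7 on plastic (log2 FC 0.68), both low intensities. H1-3 had 53.0 on Myogel and 40.0 on plastic (log2 FC 0.41), and H1-5 had 64.9 on Myogel and 56.2 on plastic. The probe sets of H1-6 had 27.0 on Myogel against 29.4 on plastic and 14.2 on Myogel against 12 on plastic, so they lay at low signal on both surfaces.

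Of the 9 H2A genes, which code for a core histone that pairs with H2B, 2 were higher (22.2%) and 3 were lower (33.3%). Over all genes, 9.71% were higher and 17.5% were lower, and 9 genes are few for such shares. The H2A median log2 FC of −0.20 became −0.08 after quantile normalization and −0.51 without probe sets of the suffixes _x_at, _s_at and _a_at. H2AC6 was the brightest, with 1883 on Myogel and 1832 on plastic (log2 FC 0.04). H2AC25 had 764 on Myogel and 601 on plastic (log2 FC 0.34), within the range of −0.58 to 0.57 of its neighbours, and its dimmer probe set had 59.0 on Myogel and 53.3 on plastic. The difference at H2AC25 ran the same way in both of its probe sets, and both lay below FC 1.5. H2AC8 had 170.3 on Myogel and 195 on plastic, and H2AC17 had 104 on Myogel and 148 on plastic (log2 FC −0.51).

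The H2A genes counted as higher were H2AC14 and H2AC15. H2AC14 had 159 on Myogel and 102 on plastic (log2 FC 0.63), read by an _x_at probe set, and it was the only histone probe set past the threshold with a mean of 100 units or more. H2AC15 had 79.4 on Myogel and 33.9 on plastic (log2 FC 1.23). Its other probe set had 47.2 on Myogel and 19.6 on plastic (log2 FC 1.27). Both probe sets with this gene alone were thus more than 2 times as high on Myogel. Brighter probe sets that matched H2AC15 together with other H2A genes showed no such rise. One had 996 on Myogel and 990 on plastic, and another had 241 on Myogel and 256 on plastic. The genes counted as lower were dim: H2AC4 had 29.7 on Myogel and 62.8 on plastic (log2 FC −1.08), H2AC16 had 24.7 on Myogel and 38.7 on plastic (log2 FC −0.65), and the pseudogene H2AC5P had 13.7 on Myogel and 23.8 on plastic (log2 FC −0.79). Each of these 5 genes lay within the range of its neighbours in signal, and H2AC16 and H2AC5P no longer reached FC 1.5 after quantile normalization or loess.

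The 14 H2B genes held the brightest histone probe sets. None was higher and 3 were lower (21.4%, against 17.5% of all genes). A negative log2 FC was seen in 11 of 14, with a median of −0.15. Over all 19775 genes, 11612 had a negative log2 FC, and the median was −0.07. The H2B median stayed below 0 under all scalings tried, at −0.04 when the median log2 ratio of all probe sets was set to 0. Under that setting the median of all genes was 0.037. H2BC12 had 5749.6 on Myogel and 5718 on plastic (log2 FC 0.01), and the probe sets nearest in signal ranged between −0.30 and 0.25. H2BC5 had 1920.0 on Myogel and 1951 on plastic, and its dimmer probe set had 673 on Myogel and 658 on plastic. For both of these genes the surfaces differed by less than the spread of their neighbours. H2BC12L had 1831 on Myogel and 1989 on plastic (log2 FC −0.12). H2BC6 had 1299.9 on Myogel and 1421 on plastic (log2 FC −0.13), and H2BC9 had 629 on Myogel and 732 on plastic (log2 FC −0.22). These 3 genes had slightly lower values on Myogel, each within the range of its neighbours.

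Among the H2B genes of intermediate signal, H2BC21 had 386 on Myogel and 392 on plastic (log2 FC −0.02). H2BC4 had 169.6 on Myogel and 220.4 on plastic (log2 FC −0.38), and H2BC17 had 169 on Myogel and 189 on plastic (log2 FC −0.16). H2BC3 had 71.5 on Myogel and 98.7 on plastic (log2 FC −0.47). The opposite direction was seen for H2BC14, with 197 on Myogel and 159.9 on plastic (log2 FC 0.30), and for H2BC11, with 119.7 on Myogel and 90.2 on plastic (log2 FC 0.41). No gene of this group reached FC 1.5.

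The 1 histone probe set outside the range of its neighbours in signal was that of H2BC15, with 29.2 on Myogel and 99.2 on plastic (log2 FC −1.76, range −1.34 to 1.24). It was 3.39 times as high on plastic, although by under 100 units. H2BC1, a testis form of H2B, had 2.34 on Myogel and 18.3 on plastic (log2 FC −2.97), and H2BC13 had 18.2 on Myogel and 32.1 on plastic (log2 FC −0.82). Both lay at intensities where a difference of a few units gives a large fold, and within the range of their neighbours. H2BC13 did not reach FC 1.5 after quantile normalization or loess.

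The H3 genes code for the core histone whose tail carries many of the known regulatory marks. Of the 7 genes, 1 was higher and 1 was lower (14.3% each, against 9.71% and 17.5% of all genes). The median log2 FC of −0.05 became 0.19 after quantile normalization. H3C8 had 1277 on Myogel and 1645 on plastic (log2 FC −0.37, with neighbours between −0.49 and 0.45). This was the lowest log2 FC among the histone probe sets of 500 units or more. H3C2 had 171 on Myogel and 179 on plastic, and H3C7 had 169.6 on Myogel and 149 on plastic (log2 FC 0.18). H3C6 had probe sets that ran opposite ways, with 76.6 on Myogel against 64.8 on plastic in the brighter and 38.8 on Myogel against 60.0 on plastic in the dimmer. The genes past FC 1.5 were H3C11, with 21.5 on Myogel and 5.49 on plastic (log2 FC 1.97), and H3C3, with 11.5 on Myogel and 20.4 on plastic (log2 FC −0.82). Both were dim, as was H3C1, with 40.6 on Myogel and 41.9 on plastic, and H3C3 was within FC 1.5 after quantile normalization or loess.

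The H4 genes had no probe set with 1 gene and a mean of 500 units or more. A probe set that matched many H4 genes at once had 12162 on Myogel and 11235 on plastic. Of the 9 genes, 1 was higher (11.1%, against 9.71% of all genes) and none was lower (17.5% of all genes). The median log2 FC of −0.07 became 0.11 after quantile normalization. H4C11 was the brightest, with 228 on Myogel and 262 on plastic (log2 FC −0.20), and H4C5 had 103 on Myogel and 147 on plastic (log2 FC −0.52). H4C8 had 62.1 on Myogel and 92.5 on plastic (log2 FC −0.58), whereas its dimmer probe set had 53.1 on Myogel and 52.6 on plastic. The difference at H4C8 was therefore seen in 1 of its probe sets. H4C4 had 83.1 on Myogel and 84.6 on plastic, and H4C1 had 72.3 on Myogel and 78.9 on plastic. The gene counted as higher was H4C9, with 57.4 on Myogel and 31.1 on plastic (log2 FC 0.88). H4C13 (31.8 on Myogel, 23.2 on plastic), H4C7 (29.7 on Myogel, 23.0 on plastic) and the pseudogene H4C10P (20.5 on Myogel, 21.6 on plastic) were below the threshold, which H4C13 and H4C7 passed, as H1-3 did, after quantile normalization or loess.

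**Figure D3:**
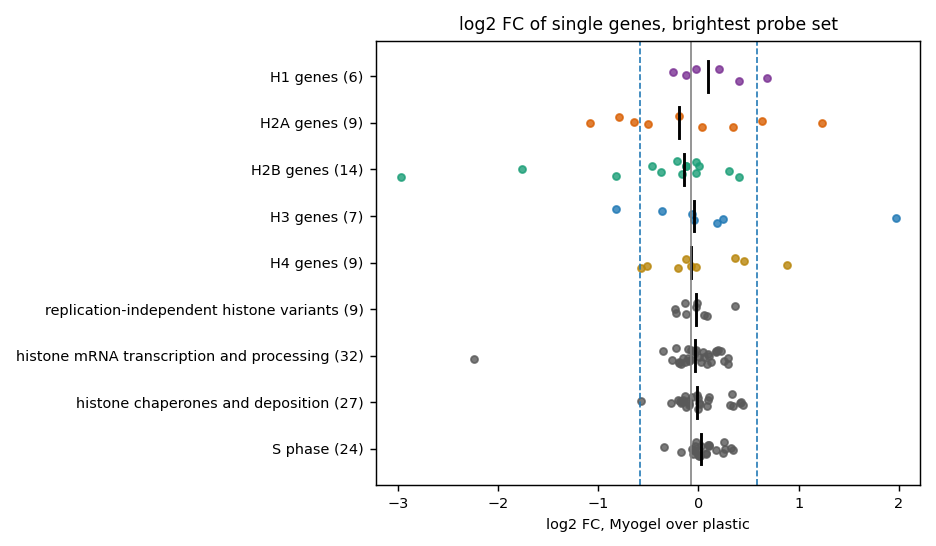
Log2 FC of Myogel over plastic for every gene of the histone classes and of the lists of related genes, 1 point per gene, with the number of genes in brackets, a black bar at the median of each group, a grey line at the median of all genes and dashed lines at FC 1.5. The medians of the 5 histone classes lie between −0.20 and 0.09, and the points of the S phase and chaperone lists stay within the lines.

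Genes with 2 probe sets gave a check within the array. There were 6 such genes, and their probe sets ran the same way in 2 of them, H2AC15 and H2AC25. In H1-6, H2BC5, H3C6 and H4C8 the signs of the log2 FC were opposite. The brighter and dimmer probe sets had −0.02 and 0.03 in H2BC5, so neither differed much between surfaces. They had −0.58 and 0.01 in H4C8, −0.13 and 0.24 in H1-6 at low signal, and 0.24 and −0.63 in H3C6. At the divergent pairs of H2A and H2B genes, which share most of their promoter window on opposite strands of chromosome 6, the partners ran the same way in 2 of 4 pairs. H2AC14 and H2BC14 had log2 FC of 0.63 and 0.30 with 256 shared bases, and H2AC17 and H2BC17 had −0.51 and −0.16 with 261 shared bases. H2AC6 and H2BC4 had 0.04 and −0.38 with 255 shared bases. The widest split was between H2AC15 at 1.23 and H2BC15 at −1.76, which share 293 bases, in the window printed above without an octamer. These partners lay on opposite sides of FC 1.5.

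**Figure D4:**
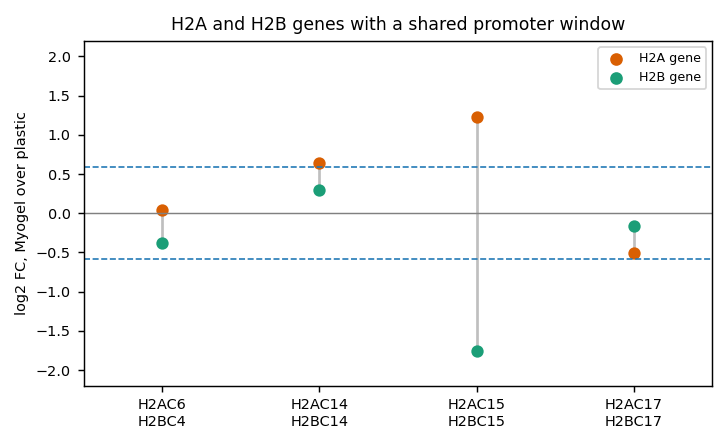
Log2 FC of Myogel over plastic for the H2A and the H2B gene of each of 4 divergent pairs, joined by a grey line, with dashed lines at FC 1.5 and 1 array per surface. H2AC15 at 1.23 and H2BC15 at −1.76 lie outside the dashed lines on opposite sides, and the partners of the other pairs lie closer together.

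Genes that make, process and deposit histone RNA and protein were counted in the same way. Of 33 listed genes for transcription and 3′ end processing of histone mRNA, 32 were measured, none was higher and 1 was lower, with a median log2 FC of −0.03. Of the 32, 31 were at least as bright as the median probe set. Among all genes of that brightness, 2.26% were higher and 4.83% were lower, so few calls are usual there. SLBP, the stem-loop binding protein, had 3856 on Myogel and 3964 on plastic, and NPAT, the coactivator at the histone clusters, had 504 on Myogel and 589 on plastic. SNRPD3, a shared subunit of the U7 particle, had 8491 on Myogel and 8351 on plastic. The log2 FC of these 3 genes lay between −0.22 and 0.02. SRRT, which links the mRNA cap to processing, had the highest of the list, with 3780.4 on Myogel and 3073 on plastic (log2 FC 0.30). The gene counted as lower was CPSF1, a subunit of the cleavage and polyadenylation factor, with 10.6 on Myogel and 50.1 on plastic (log2 FC −2.24), at low signal and outside the range of its neighbours.

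Of 28 listed histone chaperones and deposition factors, 27 were measured and none passed FC 1.5, with a median log2 FC of −0.02. All 27 were at least as bright as the median probe set, where 2.26% of all genes were higher and 4.83% were lower. NAP1L1, which carries H2A and H2B, had 12984 on Myogel and 13035 on plastic. ASF1B, the H3 and H4 chaperone of dividing cells, had the lowest log2 FC of the list, with 195 on Myogel and 289 on plastic (log2 FC −0.57). SSRP1, a subunit of the FACT complex, had 2898 on Myogel and 2124 on plastic (log2 FC 0.45), and ATRX, which deposits H3.3, had 2216 on Myogel and 1653 on plastic (log2 FC 0.42). SSRP1 and ATRX were below FC 1.5 but outside the ranges of the probe sets nearest to them in signal. Such ranges leave some probe sets outside by definition. Only the brightest probe set was read, of 2 for SSRP1 and of 4 for ATRX.

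Of 12 listed replication-independent histone variants, 9 were measured and none passed FC 1.5, with a median log2 FC of −0.02. H2AZ1 had 12887 on Myogel and 14021 on plastic, MACROH2A1 had 8218 on Myogel and 7752 on plastic, and H3-3A had 307 on Myogel and 238 on plastic. The mRNAs of replication-independent variants usually have poly(A) tails, though not every transcript of each listed gene need have one. H3-3A was the dimmest of the 9 and had the highest log2 FC among them, at 0.37. Of 25 listed S phase genes, 24 were measured and none passed FC 1.5, with a median log2 FC of 0.02 and a range of −0.34 to 0.34. All measured variants and S phase genes were at least as bright as the median probe set. Among all genes of that brightness, 2.26% were higher and 4.83% were lower. PCNA, the sliding clamp of replication, had 6826 on Myogel and 7152 on plastic, and RRM2, a subunit of ribonucleotide reductase, had 5205 on Myogel and 5185 on plastic. SLBP, CCNE1, CCNE2 and MCM2 each stood on 2 of these lists.

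The squamous origin of the cells was read from 6 of 9 listed epithelial markers, which had between 1073 and 18224 units on Myogel and between 1051 and 18856 units on plastic. None was past FC 1.5, and 5 of the 6 had a negative log2 FC, with a median of −0.10. Of all 19775 genes, 11612 had a negative log2 FC, with a median of −0.07. KRT5, a basal keratin, had 10125 on Myogel and 11907 on plastic (log2 FC −0.23), just outside the range of its neighbours in signal. DSG3, a desmosomal cadherin, had 1169 on Myogel and 1595 on plastic (log2 FC −0.45). Since Myogel is made from smooth muscle tumours, 8 smooth muscle markers were also read. Their summed intensity was 1302 on Myogel and 1329 on plastic, with 756 on Myogel and 703 on plastic from ACTA2 alone. LMOD1 was counted as higher (30.9 on Myogel, 14.3 on plastic) and SMTN (88.4 on Myogel, 135.8 on plastic) and CNN1 (1 on Myogel, the lowest value in the file, and 17.6 on plastic) as lower. Each of these lay within the range of its neighbours in signal. The part of both marker lists in the histone values was not tested.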

How the data were processed

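RNA of HSC-3 cells on Myogel and on plastic was hybridised to 1 Affymetrix U133 Plus 2.0 array per surface. The deposited values are linear intensity units that the authors computed with dChip, with a version and normalization not given in the sources used here. They had a floor of 1, held by 2581 probe sets on Myogel and 2414 on plastic. No histone probe set lay at it. The precision is limited by the number of arrays, and no test or error between replicates was possible. The median intensity was 52.5 on the Myogel array and 59.7 on the plastic array.

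Gene names came from the platform annotation, with symbols checked by Entrez identifier against RefSeq genes of the assembly GRCh38.p14. All 51 histone probe sets were found there. Of 54613 probe sets, 41091 had 1 gene, 1801 matched several genes and got no name, and 11721 are unnamed here. The 62 controls were left out. FC was taken without further scaling, at the threshold of 1.5 in the study's methods. The study's own list at that threshold was far shorter than the 13.8% of probe sets higher and 24.2% lower here. The reason was not tested, so the counts are not comparable with the study's. Full values were given for genes at or above the median signal on a surface and for genes past FC 1.5 by at least 100 units. The dimmer members were given by their values too, which goes beyond that rule, and SSRP1, ATRX, ASF1B, NPAT, SRRT, H3-3A, KRT5 and DSG3 were named after their values were seen. The histone genes and the lists were chosen with earlier results of these data known, so no count stands as independent support.

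Alternatives covered scaling between arrays (quantile, loess with span 0.3, median), added offsets of 16 and 50, a signal filter, probe set choice and thresholds. Simulated data served only to check that the code recovered fold changes put into them. False calls were not scored, so that check gives no measure of error for the calls reported here, most of which lay among dim probe sets. Computation used pandas 2.3.3 and numpy 2.4.6 under Python 3.11.15, loess from statsmodels 0.14.6 and figures from matplotlib 3.10.9.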

Additional observations from a re-analysis of the deposited data

How the results depend on the processing

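The counts of 5 higher and 7 lower genes became 8 and 3 after quantile normalization and after loess, and the median log2 FC, −0.07 as deposited, became 0.027 after the first, 0.035 after the second and 0.033 when the median log2 ratio of all probe sets was set to 0. With an offset of 16 there were 3 higher and 3 lower (all genes 5.40% and 10.5%), and with 50 there were 1 and 1 (1.90% and 3.05%). The filter on low signal left 32 genes with 3 higher and 2 lower (9.38% and 6.25%, against 3.57% and 6.97% of all genes). At FC 1.2 there were 11 higher and 13 lower (all genes 18.1% and 30.8%), at FC 2 there were 2 and 3 (6.36% and 10.7%), and with a difference of 100 units there were 0 and 0 (0.445% and 0.627%). With probe sets of the suffixes _x_at, _s_at and _a_at left out, 35 genes remained, with 4 higher and 7 lower (11.4% and 20.0%, against 11.2% and 20.7% of all genes). Adding H1-10 and H1-10-AS1, or leaving out the pseudogenes and H2BC12L, both chosen after seeing the data, left the median at −0.07 and −0.06. Class medians moved with scaling. Those of H3 and H4 turned from −0.05 and −0.07 to 0.19 and 0.11 after quantile normalization, 0.24 and 0.15 after loess, and 0.06 and 0.03 with the median ratio set to 0. The H1 median became 0.29, 0.33 and 0.20 under these settings. The H2A median became −0.08, −0.09 and −0.09, and that of H2B −0.04 with the median ratio set to 0. With those suffixes left out the medians were −0.51 for H2A, −0.38 for H2B and 0.18 for H3. Of the 12 genes past FC 1.5, only H2AC15 and H2BC15 stayed past it under every scaling, offset, filter and probe set choice. Both kept their direction, but neither was counted once a difference of 100 units was also required. The causes of these changes were not tested. No paired analysis was possible because each surface had 1 array. Low signal limits the folds of the 28 probe sets below 100 units.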

Other observations

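The 20 probe sets that matched several genes, with a clustered histone gene among them, were not named. Of these, 3 were higher and 4 were lower at FC 1.5 or more, with a median log2 FC of −0.09. On the whole array 13.8% of probe sets were higher and 24.2% lower, and the median was −0.11. None of the 11 with a mean of 200 units or more was past FC 1.5, against 4.26% of all probe sets of that intensity, and their log2 FC lay between −0.29 and 0.11. The brightest, which matched H4 genes only, had 12162 on Myogel and 11235 on plastic, above every histone probe set with 1 gene. Outside the range of their neighbours in signal were 1 with 41.5 on Myogel and the floor of 1 on plastic, and 1 with 91.0 on Myogel and 187 on plastic.

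H1-10-AS1, the antisense transcript that was set aside, had 2949 on Myogel and 3394 on plastic (log2 FC −0.20), and H1-10 had 1359 on Myogel and 1372 on plastic (log2 FC −0.01). H3-4, an H3 gene that the current names of the clusters do not take in, had 2.4 on Myogel and the floor of 1 on plastic.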
